A study of Homo sapiens with 6 samples.

Results

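RNA levels of 10 aldehyde dehydrogenase genes, ALDH1A1, ALDH1A2, ALDH1A3, ALDH1B1, ALDH2, ALDH3A1, ALDH3A2, ALDH3B1, ALDH3B2 and ALDH7A1, were followed across 6 arrays of a human bladder cancer cell line, RT4, and its derivatives. The genes were taken by symbol, with every probe of each, which gave 20 probes of the 47322 in the table and 10 genes of 34667. The family was chosen by the large differences that several members had shown between these same arrays, ALDH1A1, ALDH1A3, ALDH3A1 and ALDH7A1 in spheres or blebbishields against live cells among them. Their levels are therefore a description, and no test was made of them.

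The series concerns the blebbishield emergency program, in which bodies left by apoptotic cancer cells fuse and form transformed spheres, and lines that differ in tumorigenicity. The spheres came from parental RT4 cells (RT4P) that received 1 uM cisplatin, a DNA-crosslinking drug, and 20 mM lithium chloride for 24 h, after which 4 h of transformation preceded the purification of spheres. The blebbishields came from RT4P after the same drugs and time, and this sample mixed bodies that can and cannot form spheres. The other 4 samples were live cells with no drug listed for them. That does not cover what the cells from which RT4P-BSE2 and PBSHMS arose had received. RT4P-BSE2 is RT4 after 2 successive rounds of the program. RT4v6 is RT4 after 6 serial passages in mice, a procedure meant to enrich cancer stem cells. PBSHMS arose by fusion of RT4 blebbishields with blood mononuclear cells of human origin, and RT4P live cells are the parental reference. All were described as grown in the same supplemented medium with serum. Each group had 1 array of total RNA on an Illumina HumanHT-12 version 4 chip, so a difference between groups cannot be checked on replicates, and p-values are not given.

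Aldehyde dehydrogenases oxidise aldehydes to carboxylic acids with NAD or NADP. The ALDH1A enzymes turn retinaldehyde into retinoic acid, the ligand of the retinoic acid receptors, while other family members clear aldehydes of lipid peroxidation, ethanol or amino acid breakdown. High aldehyde dehydrogenase activity is widely used to sort stem-like cells from tumours, bladder cancers included, and several of these enzymes also oxidise metabolites of cytotoxic drugs.

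Values below are normalized log2 signals of a probe unless given as non-normalized signal. A probe was taken as detected at a detection p-value under 0.01, and a gene as measured in a comparison when detected on at least 1 of its arrays. The brightest detected probe stands for a gene. A gene was called higher or lower at a difference of at least 2-fold, and where the dimmer array did not detect it the fold is a lower bound, written "at least". Signals of different probes cannot be set against each other, so levels are ordered only within a probe. As a gauge of spread, the gap between the differences shown by 2 probes of a gene had a probe SD of 0.27 to 0.49 on the log2 scale, depending on the comparison, which is not replicate error.

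The sphere array detected 17593 probes and the RT4P-BSE2 array 17271, against 16733 on the RT4P live array. Blebbishields gave the lowest number, 14749, with a mean non-normalized signal of 263 where the other 5 arrays had 350 to 389. All 13 urothelial markers, among them UPK2 and GATA3, were detected on every array. Of 13 leukocyte markers, spheres and RT4P-BSE2 detected 5 each, blebbishields and RT4v6 3 each, PBSHMS only ITGB2 and RT4P live cells 2. The pan-leukocyte gene PTPRC and 7 others were detected on none. FCGR3A read 7.54 in blebbishields, against 4.75 without detection in RT4P live cells. Summed over the list, their linear normalized signal above the offset was 233 in spheres and 406 in blebbishields, and 202 to 246 on the arrays of live cells. The part of such signal in the results below was not tested. In these bulk samples, fewer cells of a type and less RNA per cell cannot be told apart.

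Of the 10 genes, 8 were detected on at least 1 array. The sphere and blebbishield arrays each detected 8, RT4P-BSE2 detected 7, RT4v6 and PBSHMS detected 6 each, and RT4P live cells detected 7. ALDH2, the mitochondrial enzyme that clears acetaldehyde, and ALDH3B1, an oxidiser of lipid aldehydes at membranes, were detected on no array. The single ALDH2 probe read 4.22 to 4.54, within the background range, and both ALDH3B1 probes read 4.22 to 4.61. Both genes therefore have no measured difference in any comparison below.

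**Figure D1:**
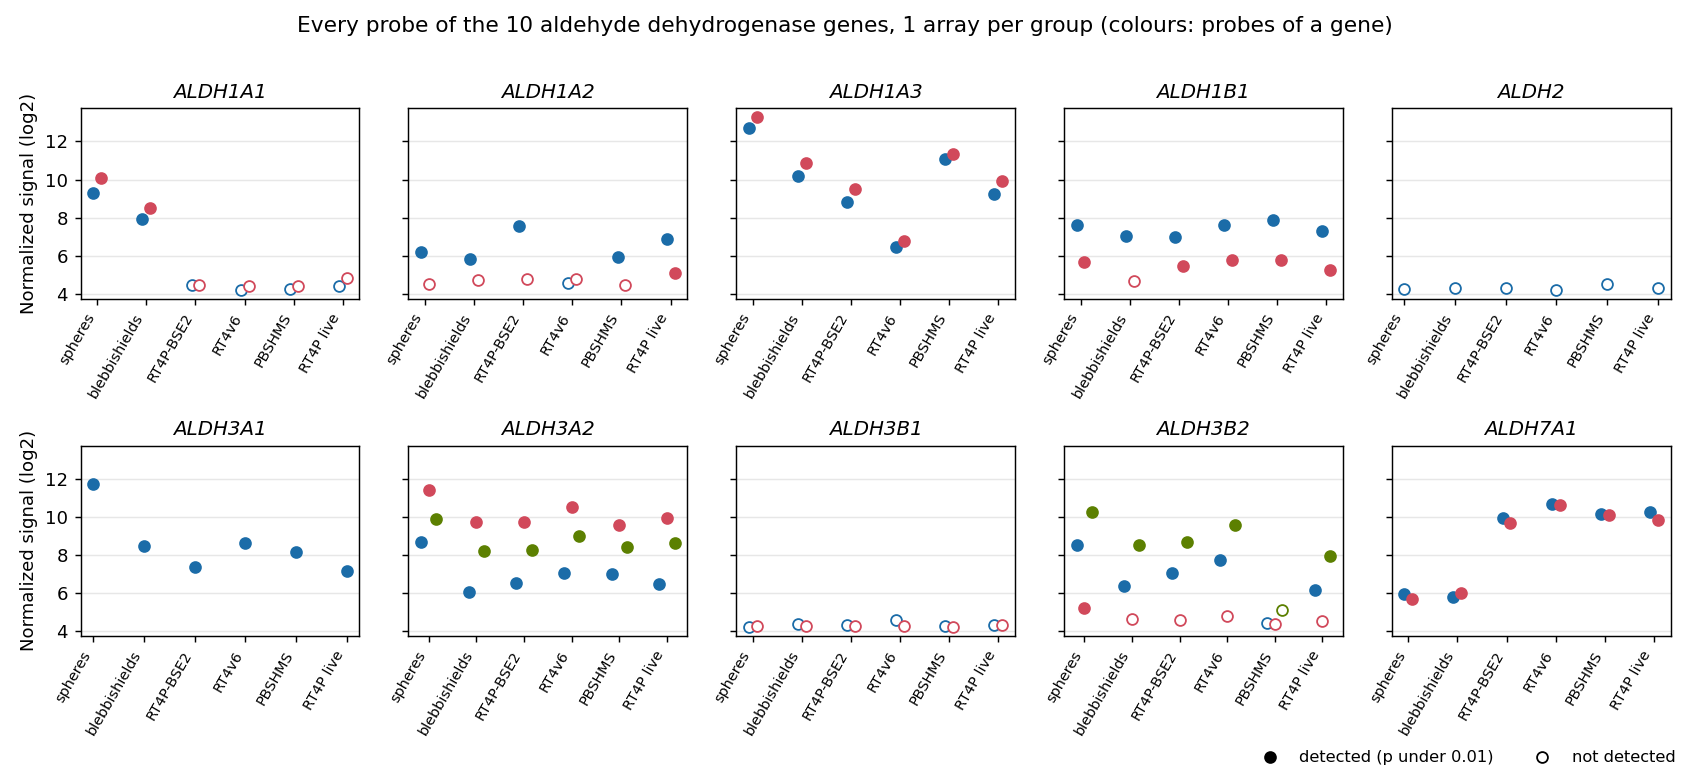
Normalized log2 signal (y axis) of each of the 20 probes on the 6 arrays (x axis), 1 panel per gene and 1 colour per probe, with filled points for detected and open points for not detected values. ALDH1A1 is detected only in spheres and blebbishields, ALDH7A1 reads under 6 in the same 2 samples and at 9.70 to 10.67 in the 4 live lines, and all points of ALDH2 and ALDH3B1 are open.

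Among the retinaldehyde dehydrogenases, ALDH1A1 was detected only in the 2 drug-treated samples. Its brighter probe, ILMN_1709348, had non-normalized signals of 1328.5 in spheres, 290.7 in blebbishields, 99.9 in RT4P-BSE2, 94.5 in RT4v6, 93.1 in PBSHMS and 110.8 in RT4P live cells. The array backgrounds lay at 86.2 to 100.5, so the live lines were near background and the spheres well above it. On the normalized scale the probe read 10.07 in spheres and 8.51 in blebbishields, and in the live lines it ranged over 4.41 to 4.83 without detection. The second probe read 9.31 in spheres and 7.92 in blebbishields, again with no detection in any live line. The 2 probes thus placed the samples in the same order, spheres first and blebbishields next.

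ALDH1A3, described in breast cancer as a main source of aldehyde dehydrogenase activity, was detected on all 6 arrays by both probes. Probe ILMN_2139970 had non-normalized signals of 10678.5 in spheres, 1290.1 in blebbishields, 849.5 in RT4P-BSE2, 197.3 in RT4v6, 2707.8 in PBSHMS and 1140.7 in RT4P live cells. Spheres were highest and RT4v6 lowest, with a normalized span of 13.28 to 6.80. PBSHMS at 11.34 and blebbishields at 10.89 differed by less than the probe SD of 0.47 on this probe. The second probe gave 12.72 in spheres, 10.18 in blebbishields, 8.82 in RT4P-BSE2, 6.49 in RT4v6, 11.07 in PBSHMS and 9.23 in RT4P live cells. That is the same order, but here PBSHMS was above blebbishields by more than the probe SD.

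ALDH1A2, the main retinaldehyde dehydrogenase of the early embryo, was dim and ran in another order. It read 6.21 in spheres, 5.83 in blebbishields, 7.58 in RT4P-BSE2, 4.58 without detection in RT4v6, 5.97 in PBSHMS and 6.88 in RT4P live cells. It was thus highest in RT4P-BSE2 and next in the parental cells, and spheres, PBSHMS and blebbishields did not differ beyond the probe SD between neighbours. Its second probe was detected in RT4P live cells alone, at 5.12. ALDH1B1, a mitochondrial enzyme related to ALDH2, varied least of the detected genes, from 7.0 in RT4P-BSE2 to 7.88 in PBSHMS.

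ALDH3A1, which oxidises aromatic and medium-chain aldehydes, is abundant in the cornea and is a known target of the aryl hydrocarbon receptor, has 1 probe. Its non-normalized signals were 3923.9 in spheres, 286.8 in blebbishields, 260.5 in RT4P-BSE2, 511.3 in RT4v6, 369.3 in PBSHMS and 239.4 in RT4P live cells. Spheres at 11.72 stood 3.07 above the next sample, RT4v6. RT4v6, blebbishields and PBSHMS lay between 8.18 and 8.65 and did not differ beyond the probe SD between neighbours, and RT4P-BSE2 (7.39) and RT4P live cells (7.19) were lowest.

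ALDH3A2, the fatty aldehyde dehydrogenase that is lost in Sjogren-Larsson syndrome, was detected everywhere by all 3 probes. Its brightest probe read 11.39 in spheres, 9.71 in blebbishields, 9.76 in RT4P-BSE2, 10.54 in RT4v6, 9.56 in PBSHMS and 9.93 in RT4P live cells. Between neighbours in the order of this probe, only spheres and RT4v6 stood above the next sample by more than the probe SD. On the dimmest probe RT4v6 (7.09) and PBSHMS (6.99) lay close together. ALDH3B2, a close relative of ALDH3B1, read 10.29 in spheres, 8.53 in blebbishields, 8.67 in RT4P-BSE2, 9.60 in RT4v6, 5.12 without detection in PBSHMS and 7.96 in RT4P live cells. Spheres were again highest with RT4v6 next, and PBSHMS was the single line without detection at the limit of 0.01. It missed that limit narrowly on this probe, with a detection p-value of 0.01169 and a non-normalized signal of 113.1 against a background of 93.8. The second ALDH3B2 probe gave the same extremes, 8.54 in spheres and 4.45 without detection in PBSHMS, and the third was detected in spheres alone at 5.24.

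ALDH7A1, also called antiquitin, oxidises a semialdehyde of lysine breakdown and protects cells against osmotic stress, and its pattern was the opposite of ALDH1A1. Probe ILMN_1687508 had non-normalized signals of 155.8 in spheres, 110.3 in blebbishields, 1103.1 in RT4P-BSE2, 1821.8 in RT4v6, 1236.9 in PBSHMS and 1414.7 in RT4P live cells. The second probe had 145.4 in spheres, 114.8 in blebbishields, 962.7 in RT4P-BSE2, 1727.7 in RT4v6, 1173.9 in PBSHMS and 1107.7 in RT4P live cells. On both probes the 2 drug-treated samples were far below all 4 live lines, though still detected.

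The genes lie on 6 chromosomes as far as the RefSeq annotation places them. ALDH1A1 and ALDH1B1 are on chromosome 9, ALDH1A2 and ALDH1A3 on 15, ALDH2 on 12 and ALDH7A1 on 5. ALDH3A1 and ALDH3A2 are close together on chromosome 17 with 1 coding gene, SLC47A2, between them. ALDH3B1 and ALDH3B2 lie on chromosome 11 with 2 coding genes between them. The neighbours ALDH3A1 and ALDH3A2 were both highest in spheres, whereas of the other pair ALDH3B2 was detected on 5 arrays and ALDH3B1 on none.

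Because ALDH1A1, ALDH1A3 and ALDH7A1 showed the widest spans among the genes with a promoter entry, the 250 bases before their starts are shown from RefSeq (GRCh38.p14). They are written 5′ to 3′ on the strand of the gene, at chr9:72953054-72953303 on the minus strand for ALDH1A1, chr15:100879581-100879830 on the plus strand for ALDH1A3 and chr5:126595220-126595469 on the minus strand for ALDH7A1. Capitals mark CCAAT, bound by the factor NF-Y, and GCGTG, the core recognised by the aryl hydrocarbon receptor, on either strand (ATTGG and CACGC on the other).
ALDH1A1: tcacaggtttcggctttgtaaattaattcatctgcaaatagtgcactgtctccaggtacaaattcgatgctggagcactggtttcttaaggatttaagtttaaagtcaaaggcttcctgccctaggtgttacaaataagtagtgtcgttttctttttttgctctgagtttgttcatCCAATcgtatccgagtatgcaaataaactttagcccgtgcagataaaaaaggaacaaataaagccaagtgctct
ALDH1A3: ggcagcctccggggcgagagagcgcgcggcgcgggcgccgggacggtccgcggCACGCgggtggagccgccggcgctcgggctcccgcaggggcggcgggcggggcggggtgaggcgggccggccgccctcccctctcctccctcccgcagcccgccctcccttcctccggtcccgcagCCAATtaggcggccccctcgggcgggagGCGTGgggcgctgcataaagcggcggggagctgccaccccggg
ALDH7A1: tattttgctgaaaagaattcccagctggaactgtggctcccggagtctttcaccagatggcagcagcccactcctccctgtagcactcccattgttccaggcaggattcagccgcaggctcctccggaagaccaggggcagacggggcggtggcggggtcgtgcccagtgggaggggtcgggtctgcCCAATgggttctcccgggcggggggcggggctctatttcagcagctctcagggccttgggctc
The ALDH1A1 window was 38.4% G and C and held CCAAT 74 to 70 bases before the start, with no GCGTG. The ALDH1A3 window was 82.4% G and C and held CCAAT at 71 to 67 bases and GCGTG at 197 to 193 (as CACGC) and 43 to 39 bases before the start. The ALDH7A1 window was 64% G and C, with CCAAT at 63 to 59 bases before the start. All 3 windows thus held CCAAT at a similar distance, although 1 of these genes was lower in spheres and the other 2 higher.

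Promoter entries were matched for 7 of the 10 genes, with 10 promoters in all. CCAAT was in 6 of the 10, 1 for each gene except ALDH3B1, while 32% of all 35116 promoters of that length hold it. GCGTG was in 3 of the 10, 1 each of ALDH1A2, ALDH1A3 and ALDH3A2, against 32.2% of all promoters. The antioxidant response core TGACNNNGC (10.9% of all promoters) and TATAAA (10.7%) were in none of the 10. These are matches of letters within a short window and say nothing about binding.

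Spheres were set against RT4P live cells to describe the last step of the program. The 4 largest increases were those of ALDH1A1, ALDH3A1, ALDH1A3 and ALDH3B2, with a smaller one for ALDH3A2, while ALDH7A1 fell. Of the 8 genes measured, 5 were higher and 1 lower, where 6.30% of all 14688 genes measured passed 2-fold, 3.00% higher and 3.31% lower. The genes were chosen with this contrast known, so nothing is read from that count. Their median log2 difference was 1.89, against 0.00 for all genes, and 1.46 over the 7 detected on both arrays.

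ALDH1A1 was at least 31.2-fold higher in spheres, and that gene counts as measured through the sphere array alone. Its bound of 4.96 on the log2 scale ranged over 3.34 to 5.25 in the processing alternatives. ALDH3A1 was 23.1-fold higher (log2 difference 4.53), with a range of 3.94 to 4.61 over the processing alternatives. ALDH1A3 was 10.3-fold higher by the brighter probe and 11.2-fold by the second. ALDH3B2 was 5.00-fold higher, with 5.18-fold from its second probe. ALDH1A3 and ALDH3B2 were thus raised by every probe that detected them on both arrays. ALDH3A1 has 1 probe, and no ALDH1A1 probe was detected in RT4P live cells, so those increases have no such check. ALDH3A2 was 2.76-fold higher, and its other 2 probes gave 4.59-fold and 2.41-fold.

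ALDH7A1 was 19.7-fold lower in spheres by the brighter probe and 17.6-fold lower by the second. Its difference of -4.30 on the log2 scale moved to -3.20 at the least over the alternatives, against a probe SD of 0.31. ALDH1A2 (-0.68) and ALDH1B1 (0.32) stayed under 2-fold.

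Blebbishields carried part of the sphere pattern. ALDH1A1 and ALDH3A1 were higher and ALDH7A1 and ALDH1A2 lower than in RT4P live cells, so 2 of 8 measured genes were higher and 2 lower. Of all 13862 genes, 11.8% passed 2-fold, 7.08% higher and 4.76% lower. ALDH1A1 was at least 10.5-fold higher, and this bound of 3.40 on the log2 scale ranged over 1.96 to 3.68 in the alternatives. ALDH7A1 was 22.0-fold lower by the brighter probe and 14.6-fold lower by the second. Its log2 difference of -4.46 ranged over -5.08 to -3.27. ALDH3A1 was 2.44-fold higher, and ALDH1A3, at a log2 difference of 0.98, fell just short of 2-fold on both probes. The ALDH1A3 difference ranged over 0.20 to 1.01 in the alternatives.

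The remaining blebbishield differences were -0.21 for ALDH3A2, -0.24 for ALDH1B1 and 0.57 for ALDH3B2. The median of the 8 was 0.18, with 0.00 for all genes, and -0.21 over the 7 detected on both arrays. The smaller of these values depend on how the dim array is scaled. Over all genes, the median of blebbishields minus RT4P live was -0.70 when arrays were not normalized to each other, and -0.56 with equal medians. On those scales ALDH3A1 was at 0.46 and 0.60, under 2-fold though still above the shift of all genes, and ALDH3B2 changed sign to -0.28 and -0.14. ALDH1A2 was past 2-fold in 5 of 9 alternatives, with a range of -1.65 to -0.54. ALDH1B1 and ALDH3A2 reached -1.03 and -1.04 at the lowest, each past 2-fold in 1 of 10 alternatives. The ALDH1A1 and ALDH7A1 differences kept their direction and stayed past 2-fold throughout.

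**Figure D2:**
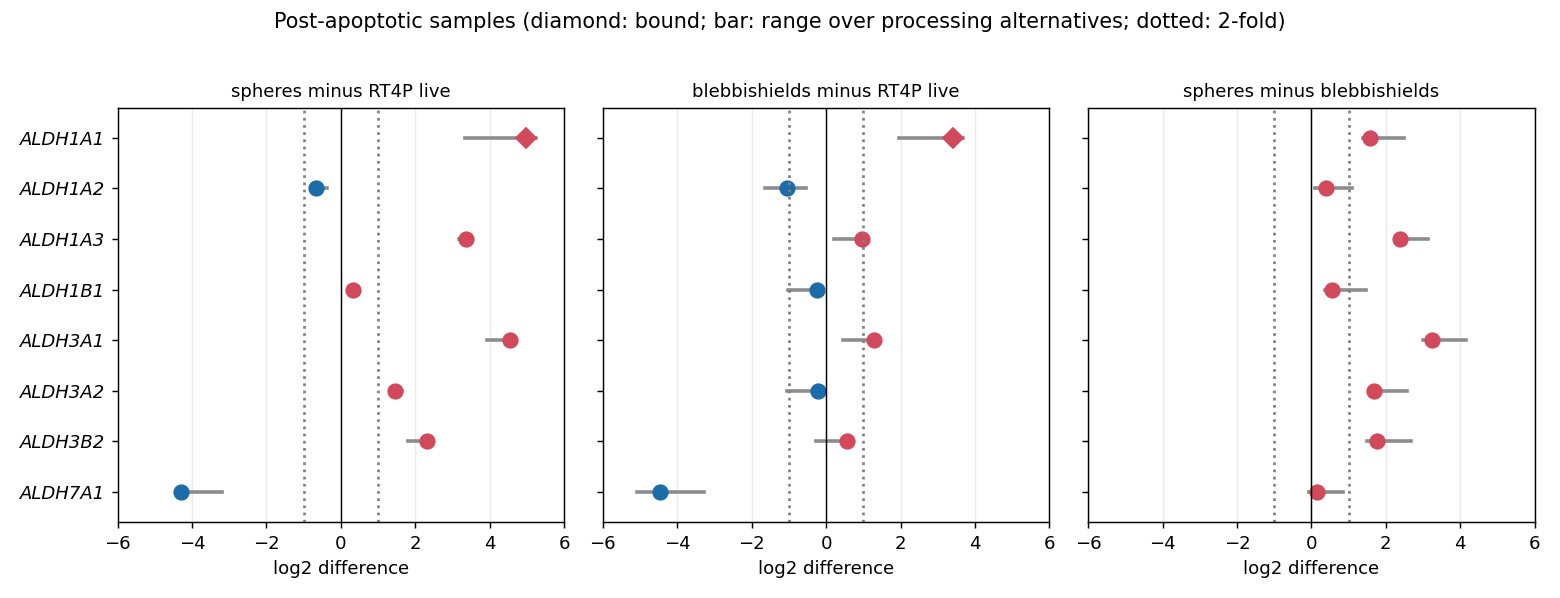
Log2 difference (x axis) of the 8 detected genes in spheres minus RT4P live cells, blebbishields minus RT4P live cells and spheres minus blebbishields, with diamonds for bounds, grey bars for the range over the processing alternatives and dotted lines at 2-fold. ALDH7A1 lies near -4.30 and -4.46 in the first 2 panels and at 0.16 in the last, while ALDH1A3, ALDH3A1, ALDH3A2 and ALDH3B2 pass 2-fold upward in the first and last panels.

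Spheres were then set against blebbishields, which share the drug treatment. ALDH3A1 was 9.49-fold higher in spheres, ALDH1A3 5.25-fold, ALDH3B2 3.37-fold, ALDH3A2 3.20-fold and ALDH1A1 2.96-fold. That is 5 of 8 measured genes higher and 0 lower, where 8.99% of 14321 genes passed 2-fold, 3.01% higher and 5.98% lower. The median was 1.62, against 0.00 for all genes. Second probes gave 5.81-fold for ALDH1A3, 4.52-fold for ALDH3B2 and 2.63-fold for ALDH1A1, so each of these increases was seen on both probes. ALDH7A1 differed by 0.16, with the second probe at -0.27, both within the probe SD of 0.41, and ALDH1A2 (0.38) and ALDH1B1 (0.56) stayed under 2-fold.

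Between spheres and blebbishields, the median over all genes was 0.76 when arrays were not normalized to each other and 0.59 with equal medians. The 5 genes stayed past 2-fold under both, but both scalings move all genes upward, so this is no check on them. Of 14321 genes, 4670 and 3219 were then called higher, and of the 8 members 7 and 6. ALDH1B1 reached 1.47 and ALDH1A2 1.08 at the highest over the alternatives. The spheres had also had 4 h more in culture. This comparison and that of spheres with RT4P live cells share the sphere array, and the comparisons with RT4P live cells share its array, so their values stand side by side and are not independent of each other.

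The derived live lines were compared with the parental cells to describe the family after 2 rounds of the program, mouse passage and fusion. In RT4P-BSE2, 0 of 7 measured genes passed 2-fold in either direction, where 1.57% of 14411 genes did, 1.30% higher and 0.271% lower. The largest differences were 0.70 each for ALDH1A2 and ALDH3B2, and the second ALDH3B2 probe gave 0.90. ALDH1A3 was at -0.41, ALDH7A1 at -0.33, ALDH1B1 at -0.30, ALDH3A1 at 0.20 and ALDH3A2 at -0.17. ALDH1A1 was not detected, and the median was -0.17 against -0.01 for all genes. RT4P-BSE2 thus showed none of the 2-fold differences seen in spheres, although 0 of 7 is near the 1.57% of all genes.

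In RT4v6, ALDH1A3 was 8.69-fold lower than in RT4P live cells (second probe 6.69-fold), whereas ALDH3B2 was 3.10-fold higher and ALDH3A1 2.75-fold higher. ALDH1A2 was at least 3.41-fold lower, being undetected in RT4v6. Of 7 measured genes, 2 were higher and 2 lower, where 3.56% of 14200 genes passed 2-fold, 1.15% higher and 2.41% lower. The ALDH1A2 difference is that of a dim probe and was under 2-fold in 3 of 10 alternatives, at -0.79 without background correction, -0.81 in the authors' processed values and -0.89 with the mean over probes. ALDH3A2 (0.61), ALDH7A1 (0.42) and ALDH1B1 (0.31) were all above 0 but under 2-fold, and the median was 0.42 against 0.02 for all genes.

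In PBSHMS, ALDH1A3 was 2.69-fold higher than in RT4P live cells (second probe 3.58-fold) and ALDH3B2 at least 6.52-fold lower. That is 1 of 7 measured genes higher and 1 lower, where 3.83% of 13788 genes passed 2-fold, 1.79% higher and 2.04% lower. The ALDH3B2 difference was -0.97 with the mean over its probes, 1 of which was dim on both arrays. ALDH3A1, at 0.99, was 1.99-fold higher and fell short of the 2-fold call. ALDH1A2 (-0.92), ALDH1B1 (0.58), ALDH3A2 (-0.36) and ALDH7A1 (-0.09) stayed under 2-fold, and the median was -0.09 against 0.00.

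ALDH1A3 thus lay on opposite sides of the parental level in the 2 lines, at 6.80 in RT4v6 and 11.34 in PBSHMS, against 9.92 in RT4P live cells. ALDH3B2 did so the other way round, at 9.60 in RT4v6 and 5.12 without detection in PBSHMS, against 7.96 in RT4P live cells. No derived line had detectable ALDH1A1, and in all 3 ALDH7A1 stayed within 0.42 of the parental cells by its brighter probe.

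**Figure D3:**
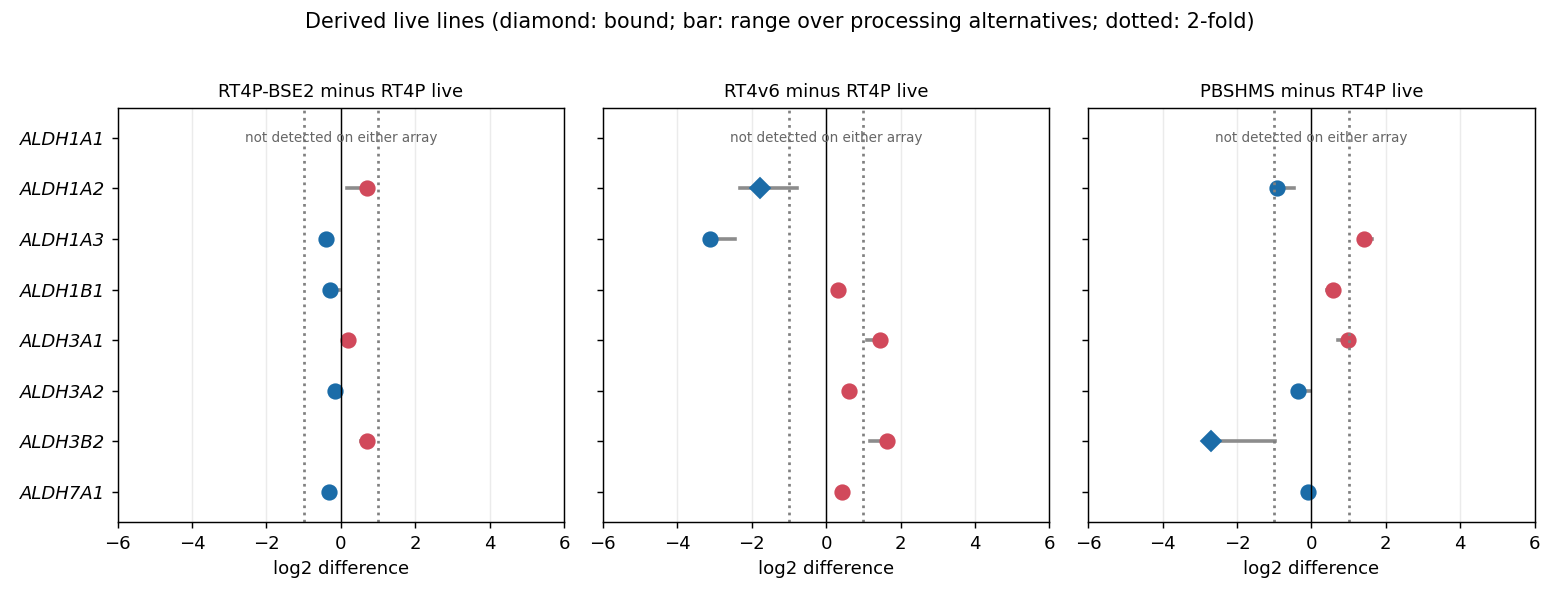
Log2 difference (x axis) of the 8 genes in RT4P-BSE2, RT4v6 and PBSHMS, each minus RT4P live cells, drawn as in the plot of the post-apoptotic samples. No point of RT4P-BSE2 passes 2-fold, ALDH1A3 stands at -3.12 in RT4v6 and at 1.43 in PBSHMS, and ALDH3B2 stands at 1.63 in RT4v6 and at a bound of -2.71 in PBSHMS.

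Across the 6 comparisons there were 28 pairs of a gene and a comparison in which several probes were detected on both arrays. In 23 of these all probes lay on the same side of 0. The 5 exceptions were ALDH7A1 in spheres against blebbishields, ALDH1B1 and ALDH3A2 in RT4P-BSE2, and ALDH3A2 and ALDH7A1 in PBSHMS, none of which passed 2-fold.

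The rest of the family was also followed in spheres. Of 9 other aldehyde dehydrogenase genes 7 were measured, and 0 were higher or lower than in RT4P live cells at 2-fold. Of all genes 6.30% passed, so 0 of 7 is near that share. The median was -0.13. The nearest to the limit were ALDH4A1 of proline breakdown (-0.95), ALDH1L1, a folate enzyme (-0.88), and ALDH6A1 of valine breakdown (0.80). ALDH9A1, which oxidises aminobutyraldehyde, was at -0.25. These 9 were not picked for a difference, while the 10 were, so the contrast between the lists is a description of the choice. In blebbishields, 0 of the 7 passed 2-fold either, where 11.8% of all genes did, with a median of -0.10. Without between-array normalization the median was -0.95 and 3 of the 7 were called lower, while all genes moved by -0.70.

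Of 29 genes that make, bind or answer to retinoic acid, the product of the ALDH1A enzymes, 16 were measured in spheres against RT4P live cells. At 2-fold 1 was higher and 2 lower, where 6.30% of all genes passed, and the median was 0.20 (-0.02 over the 13 detected on both arrays). The retinol dehydrogenase DHRS9, which acts 1 step before the ALDH1A enzymes, was 27.1-fold higher. RARRES1 and RARRES3 (now PLAAT4), named for induction by a retinoid, were 3.85-fold and 3.14-fold lower. In blebbishields 1 of 14 was higher and 2 lower, the same 3 genes: DHRS9 was 6.01-fold higher, RARRES1 at least 4.80-fold lower and RARRES3 at least 3.53-fold lower. The lower count there was 4 with equal medians and 5 without between-array normalization. DHRS9 and RARRES1 also differed in derived lines, where DHRS9 was at least 2.25-fold lower in RT4v6 and at least 2.04-fold lower in PBSHMS. RARRES1 was 2.82-fold higher in RT4P-BSE2 and 5.96-fold lower in RT4v6.

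The aryl hydrocarbon receptor is a ligand-activated factor of which ALDH3A1 is a known target, and its list holds the receptor AHR, its partner ARNT and target genes. In spheres CYP1A1 was at least 161-fold higher than in RT4P live cells, CYP1A2 at least 5.87-fold, CYP1B1 at least 4.85-fold, NQO1 3.46-fold and UGT1A6 2.27-fold. CYP1A1, CYP1A2 and CYP1B1 are measured through the sphere array alone and were not detected in RT4P live cells or blebbishields. TIPARP (0.38), AHR (0.17) and ARNT (-0.46) were under 2-fold. Of the 8 measured genes 5 were thus higher and 0 lower, with a median of 1.49. Over the 5 detected on both arrays, 2 were higher and the median was 0.38. Of all genes, 6.30% passed 2-fold in this comparison, 3.00% higher and 3.31% lower. In blebbishields 1 of 5 measured genes passed 2-fold, where 11.8% of all genes did. It was the receptor gene AHR itself at 2.01-fold, which dropped to a log2 difference of 0.36 without between-array normalization. In the 3 derived lines 0 of 5 or 6 measured genes passed 2-fold, where 1.57% to 3.83% of all genes did.

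Of 20 measured targets of NRF2, the factor of the oxidative stress response, 13 were higher and 0 lower in spheres than in RT4P live cells, with a median of 1.42. Over the 18 detected on both arrays 12 were higher, with the same median. Of all genes, 6.30% passed 2-fold in this comparison, 3.00% higher and 3.31% lower. The heme oxygenase gene HMOX1 was 17.6-fold higher, the aldehyde and retinaldehyde reductase AKR1B10 7.42-fold, SLC7A11, which imports cystine, at least 7.13-fold, and TXNRD1, which reduces thioredoxin, 4.34-fold. Against blebbishields, 12 of 20 were higher in spheres and 0 lower, where 3.01% of all genes were higher and 5.98% lower. In blebbishields 2 of 20 were higher than in RT4P live cells, near the 11.8% of all genes that passed 2-fold there (7.08% higher). Of these, HMOX1 was 2.24-fold higher, but at a log2 difference of 0.34 without between-array normalization. On that scale 0 of the 20 were higher and 4 lower (median -0.35), and likewise 0 and 4 with equal medians (median -0.21). AKR1B10 was 2.94-fold lower in RT4v6 and at least 2.83-fold lower in PBSHMS.

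A list of aldehyde reductases and related reductases was measured for all 11 genes, not all of which act on aldehydes. In spheres 3 were higher and 0 lower than in RT4P live cells (median 0.74). They were AKR1B10, PTGR1 at 3.56-fold and CBR3 at 2.01-fold. PTGR2 was 7.37-fold higher in blebbishields than in RT4P live cells and 4.32-fold lower in spheres than in blebbishields. Among 10 measured genes of fatty aldehyde and sphingolipid breakdown, the pathway of ALDH3A2, 3 were higher in spheres: CYP4F3 at 14.1-fold, FAR2 at 3.53-fold and CYP4F11 at 2.11-fold (list median 0.19). Among the 9 measured genes of lysine and choline breakdown, the pathways of ALDH7A1, 0 passed 2-fold in spheres (median 0.12) or in blebbishields (median 0.00). Of all genes, 6.30% and 11.8% passed in these comparisons. In blebbishields 2 of the 9 were lower with equal medians (median -0.70) and 3 without between-array normalization (median -0.84). The lysine genes beside ALDH7A1 included AASS at 0.12 and AADAT at 0.14 in spheres. Of 9 alcohol dehydrogenase and aldehyde oxidase genes, 1 was measured in spheres against RT4P live cells, at -0.30.

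**Figure D4:**
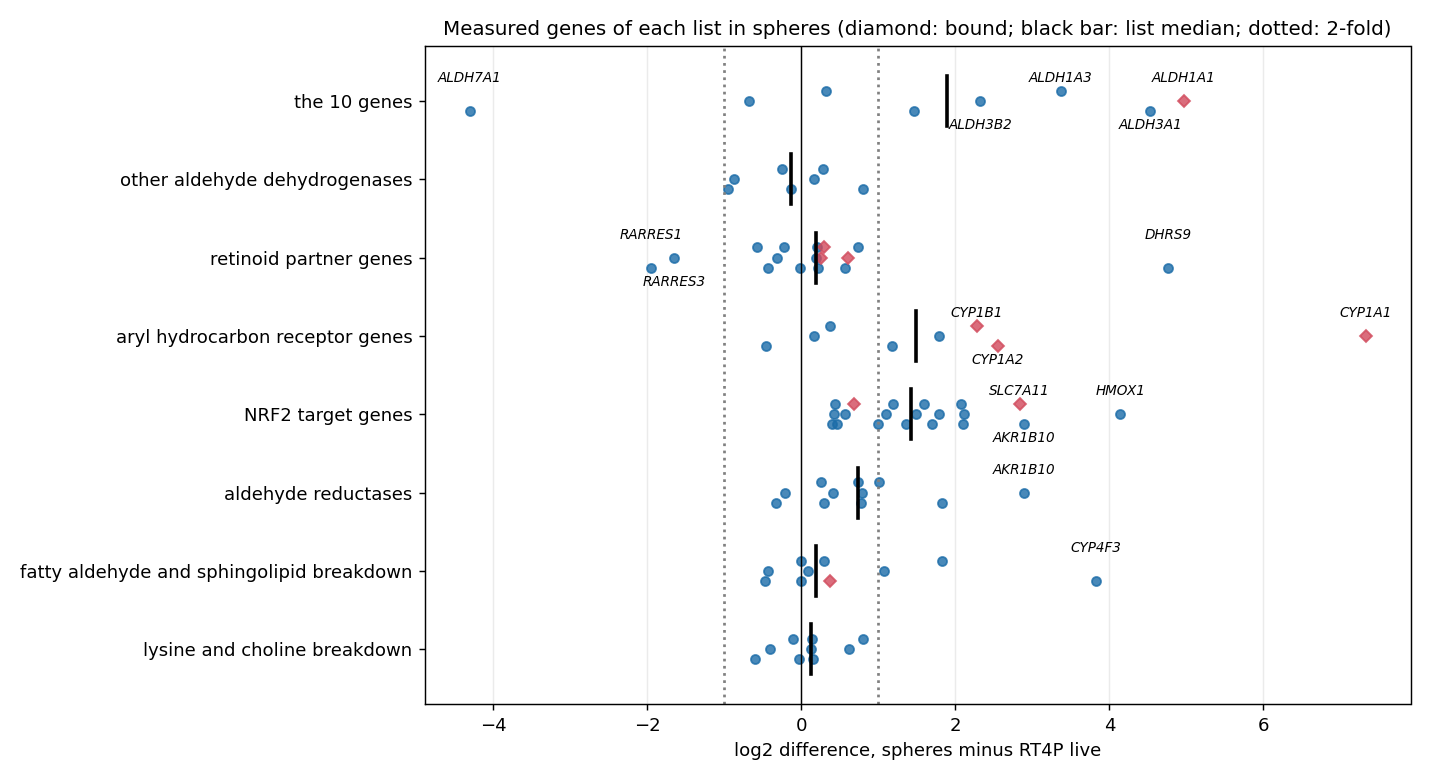
Log2 difference in spheres minus RT4P live cells (x axis) of the measured genes of the 10 aldehyde dehydrogenases and of 7 partner lists (y axis), with diamonds for bounds, black bars for medians and dotted lines at 2-fold. The median of the NRF2 targets lies at 1.42, that of the aryl hydrocarbon receptor genes at 1.49 with 3 of the 8 as bounds (0.38 without them), and those of the other aldehyde dehydrogenases (-0.13), retinoid partners (0.20) and lysine and choline genes (0.12) lie near 0.

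For each of 6 aldehyde dehydrogenases whose signal spanned at least 2 on the log2 scale, the 3 genes with the highest Pearson r over the 6 arrays were taken from 716 candidates with a span that wide. The points share their arrays and scaling, and with 6 points high values of r are common, so these are descriptions. Several of these genes were not detected on some arrays, where r compares background signals. For ALDH1A1 they were the fatty acid translocase CD36 (0.998), asparagine synthetase ASNS (0.988) and CYP4F3 (0.987). CD36 read 6.91 in spheres and 6.14 in blebbishields. In the live lines it read 4.27 to 4.36, under the lowest detected values of those arrays (5.04 to 5.26). ALDH1A1 was not detected there either, so on the live arrays that r compares background signals. ASNS was highest in spheres at 11.47 and lowest in RT4v6 at 8.70. For ALDH7A1 they included the protease gene CTSE (0.994) and the collagen gene COL9A2 (0.976). CTSE read 4.71 in spheres and 4.90 in blebbishields, under the lowest detected values of those arrays (5.01 and 5.47), and at least 8.26 in the live lines. COL9A2 was also under those values in spheres and blebbishields.

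For ALDH3A1 the nearest were the NRF2 target SRXN1 (0.985), the NRF2 target SLC7A11 (0.973) and FBXW10 (0.957). FBXW10 lay under the lowest detected value on every array but that of spheres, and SLC7A11 did so in RT4P-BSE2 and RT4P live cells. For ALDH1A3 they were the vitamin D hydroxylase CYP2R1 (0.975), the galectin LGALS3 (0.969) and the glutamate decarboxylase GAD1 (0.948). All 3 were lowest in RT4v6, as ALDH1A3 was, where CYP2R1 lay under the lowest detected value of the array. For ALDH3B2 they included the peptidylarginine deiminase PADI3 (0.969) and ASCL2 (0.969), a basic helix-loop-helix factor. Both were lowest in PBSHMS, as ALDH3B2 was, but highest in RT4v6, where ALDH3B2 was highest in spheres. For ALDH1A2 they were the oestrogen receptor ESR1 (0.964), the carboxypeptidase CPE (0.945) and RNASE4 (0.927), all highest in RT4P-BSE2 and lowest in RT4v6. Their RT4v6 values, like that of ALDH1A2, lay under the lowest detected value of that array (5.12).

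**Figure D5:**
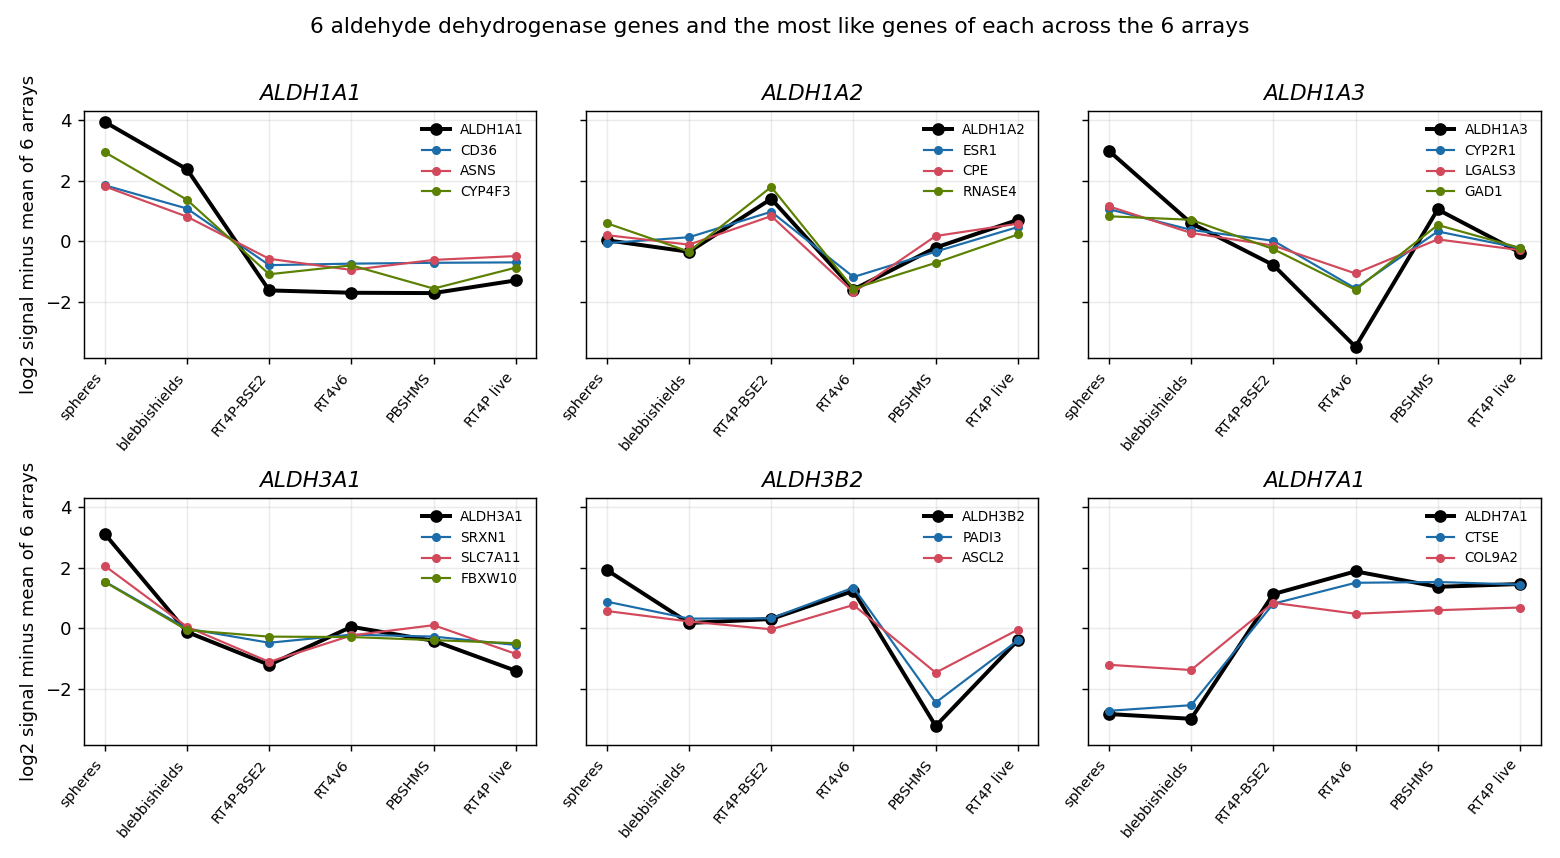
Normalized log2 signal minus its mean over the 6 arrays (y axis) for 6 aldehyde dehydrogenase genes (black) and up to 3 genes most like each (colours), by array (x axis). ALDH1A1 and ALDH7A1 change between the 2 drug-treated samples and the 4 live lines in opposite directions, while ALDH1A3 and ALDH1A2 are lowest in RT4v6 and ALDH3B2 in PBSHMS.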

How the data were processed

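RNA of 6 samples in 6 groups of 1 was hybridised to 1-colour Illumina HumanHT-12 version 4 arrays, per the labels, with GenomeStudio named in the submitters' processing notes. Per the file headers, the deposited table holds non-normalized signal intensity for 47322 probes with a detection p-value for each. A second deposited table has the authors' processed intensity, linear by its values, with equal quantiles and a median of 104.4 on each array. No genome build is named in the sources used here, and depth is not applicable to arrays, whose number limits the precision.

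In R 4.3.3, limma 3.58.1 (neqc) was applied to the non-normalized signals: normexp background correction, with the negative controls estimated through the detection p-values, then an offset of 16, quantile normalization of all 6 arrays and log2. A dim array's undetected value was raised to the lowest detected value on it before a difference was taken, and 0 was used where that step would have reversed the sign. The offset understates folds of dim genes. Differences, list medians and 2-fold counts were computed in Python 3.11.15, and the steps were tested on simulated data. No test was run, since no group had a replicate. For the probe SD, the log2 differences of the 2 brightest probes per gene were subtracted from each other, and the SD over genes was divided by the square root of 2.

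Of 147 names of members and lists, 145 were current symbols and 2 older ones, by RefSeq tables of GRCh38.p14. A further 27 names turned into dates (54 probes) were left out. The members, the 10 lists and the rules for named genes were chosen with earlier results of these data known. The rules name all members, up to 4 genes per list and comparison at 2-fold or more and the 3 genes most like a member by Pearson r. Some genes that meet the rules are not reported here. AASS, AADAT, ALDH1L1, ALDH6A1, ALDH9A1 and other genes under 2-fold were named after their values were seen. Of the alternatives, 10 were planned and 1, normalization without the blebbishield array, was added after seeing the data.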

Additional observations from a re-analysis of the deposited data

How the results depend on the processing

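Of 45 member differences, 21 were at 2-fold or more. All 21 kept their direction in every alternative that gave a value, and 17 stayed past 2-fold in each. The 4 that did not were ALDH1A2 and ALDH3A1 in blebbishields, ALDH1A2 in RT4v6 and ALDH3B2 in PBSHMS. Of 464 member values under an alternative, 396 moved by less than the probe SD and 68 by more. The cause of these movements was not tested beyond what each alternative changes by construction. No paired analysis was possible because each group has 1 array.

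The largest changes in the counts of members at 2-fold or more, taken as ratios, were as follows. In blebbishields against RT4P live cells the count of 4 became 2 without background correction, 2 with detection on all 6 arrays and 2 in the authors' processed values. Detection on all 6 arrays, which leaves fewer genes, also gave 3 in place of 5 in spheres against blebbishields, 2 in place of 4 in RT4v6 and 1 in place of 2 in PBSHMS. The mean over probes gave 1 in PBSHMS. Between-array scaling made smaller changes. Blebbishields against RT4P live cells had 2 members higher and 2 lower. These became 1 and 4 without between-array normalization, 1 and 2 with equal medians and 3 and 2 with the pair normalized alone. Spheres against blebbishields had 7 and 6 higher in the first 2 of these settings. PBSHMS had 1 higher and 2 lower in the first, and 2 and 1 in the last.

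Counts over all genes moved with the background correction. In spheres against RT4P live cells, 926 genes passed 2-fold, against 380 without background correction, 555 with an offset of 50 and 389 in the authors' processed values. The same settings gave 819, 1106 and 831 in place of 1642 in blebbishields against RT4P live cells, and 575, 805 and 592 in place of 1288 in spheres against blebbishields. They gave 104, 142 and 105 in place of 226 in RT4P-BSE2, 165, 269 and 179 in place of 505 in RT4v6, and 172, 288 and 186 in place of 528 in PBSHMS. Detection on all 6 arrays gave 123 in RT4P-BSE2, 316 in RT4v6 and 343 in PBSHMS.

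Scaling of the dim blebbishield array moved the split of calls. In blebbishields against RT4P live cells 59.8% of called genes were higher, but 13.3% of 3623 with equal medians and 9.21% of 4658 without between-array normalization. In spheres against blebbishields 33.5% were higher, but 91.8% of 3505 and 95.8% of 4876. Without between-array normalization the share higher was 59.0% in place of 47.5% in spheres against RT4P live cells and 31.0% in place of 46.8% in PBSHMS. Signal near background limits ALDH1A2, ALDH2, ALDH3B1, the live-line values of ALDH1A1, ALDH7A1 in blebbishields and ALDH3B2 in PBSHMS.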

Other observations

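Of 7 measured other aldehyde dehydrogenases, 1 passed 2-fold in RT4v6 and 0 in RT4P-BSE2 or PBSHMS, each against RT4P live cells. Of all genes, 3.56% did so in RT4v6, 1.57% in RT4P-BSE2 and 3.83% in PBSHMS. ALDH4A1, the mitochondrial enzyme of proline breakdown, read 7.65 in spheres, 8.56 in blebbishields, 8.76 in RT4P-BSE2, 9.84 in RT4v6, 7.68 in PBSHMS and 8.60 in RT4P live cells. RT4v6 was thus highest, 2.36-fold above RT4P live cells. ALDH5A1, which clears succinic semialdehyde, was at a log2 difference of -0.99 in blebbishields against RT4P live cells, just short of 2-fold.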
